A study of Mus musculus with 4 samples.

Results

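Sst, Npy, Tac1, Penk, Pdyn and Nts encode the precursors of neuropeptides, and these 6 genes were taken by symbol from the 43346 features counted in each of 4 single-cell libraries of the embryonic mouse forebrain. All libraries came from wild-type C57BL/6J embryos at E12.5, an age in embryonic days. They were made from the dorsal cortex (CTX), the lateral (LGE), the medial (MGE) and the caudal (CGE) ganglionic eminence, with 1 droplet library (10x Genomics) for each region, and tissue was pooled over embryos. A sort for live cells is given in the labels but not for wild-type tissue in the published methods, so whether one shaped the shares of cells was not settled. The unit of every level is the number of unique molecular identifiers (UMIs) of a gene per 1e6 UMIs of the cells summed (CPM).

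Neuropeptides are cut from precursor proteins by enzymes in dense-core vesicles and released beside fast transmitters. Somatostatin (Sst) and neuropeptide Y (Npy) are carried by cortical interneurons that are born in the MGE and need the LIM-homeodomain factor Lhx6, and by some striatal interneurons. Substance P (from Tac1) and dynorphin (Pdyn) mark striatal projection neurons of the direct pathway, whose development depends on Ebf1 and Isl1. Enkephalin (Penk) marks those of the indirect pathway, and neurotensin (Nts) is made by several forebrain neuron types.

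The positions of the genes were taken from GENCODE M21 on GRCm38, and each is a protein-coding gene. Sst (ENSMUSG00000004366.3) lies at chr16:23889573-23890958 on the minus strand, Npy (ENSMUSG00000029819.6) at chr6:49822710-49829507 on the plus strand and Tac1 (ENSMUSG00000061762.8) at chr6:7554879-7565834 on the plus strand. Penk (ENSMUSG00000045573.9) lies at chr4:4133531-4138819, Pdyn (ENSMUSG00000027400.7) at chr2:129686565-129699844 and Nts (ENSMUSG00000019890.3) at chr10:102481756-102490486, all on the minus strand. Penk overlaps a gene on the other strand, A830012C17Rik, and since counting by strand was not stated, its counts are uncertain.

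RefSeq promoter windows on GRCm38.p6 were matched for 5 of the 6 genes. They are shown for the genes with the most UMIs, and capitals mark the motifs searched. These were TGACGTCA, the cyclic AMP response element, and TAATTA, a core bound by many homeodomain proteins. Both read the same on either strand. Within 250 bases before the RefSeq start, TGACGTCA began 48 bases before the start of Sst and TAATTA 100 bases before that of Tac1, and neither was in the window of Npy, Pdyn or Nts. Of all 32851 windows of that length, 1.55% held TGACGTCA and 4.84% held TAATTA. GENCODE places the starts of Sst and Tac1 further upstream than RefSeq, so that by GENCODE each motif lies inside its gene and not before it. Only 30 bases around each motif are therefore given for them, at chr16:23890874-23890903 (minus strand) and chr6:7554949-7554978 (plus strand). The Npy window, chr6:49822460-49822709 on the plus strand, is given whole.
Sst: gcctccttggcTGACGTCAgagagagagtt
Tac1: cgagggggcggcTAATTAaatattgagcag
Npy: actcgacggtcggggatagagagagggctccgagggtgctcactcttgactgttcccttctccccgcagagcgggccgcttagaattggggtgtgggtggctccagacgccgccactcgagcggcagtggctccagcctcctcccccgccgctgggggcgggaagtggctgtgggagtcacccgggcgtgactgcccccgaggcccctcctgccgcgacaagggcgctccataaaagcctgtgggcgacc

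High-Dcx cells, the young neurons, were those in which ln(1 + UMIs per 10000) of Dcx exceeded 1.5. After filters on genes per cell, mitochondrial and Hbb share and predicted doublets, 3188 to 4738 cells were kept per library, of which 2288 in CGE, 2215 in MGE, 2114 in LGE and 798 in CTX were high-Dcx cells. The median high-Dcx cell held between 6355 and 7975 UMIs. Libraries shared 4 to 15 cell barcodes per pair. Regional markers followed the labels: summed over a marker list, excitatory genes reached 2492 CPM in CTX and 80.8 CPM or less elsewhere, MGE interneuron genes were highest in MGE at 2519 CPM, striatal genes in LGE at 3373 CPM and CGE interneuron genes in CGE at 879 CPM. There was 1 library per region, so no test between regions was possible. The intervals in square brackets are exact 95% intervals and cover counting error only. In particular, UMIs of 1 cell are not independent of each other.

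Each of the 3 eminences was highest for a different peptide gene. Sst was highest in CGE with 435 CPM [425–446] in high-Dcx cells, against 178 [171–185] in LGE, 68.2 [64.1–72.6] in MGE and 68.0 [61.9–74.5] in CTX. CGE exceeded LGE by a ratio of 2.45 [2.34–2.56], whereas the ratio of MGE to CTX was 1.00 [0.897–1.12]. Npy was highest in MGE with 421 CPM [411–432], followed by CGE with 137 [131–143], LGE with 107 [101–112] and CTX with 9.61 [7.42–12.3]. Tac1 was highest in LGE with 101 CPM [96.0–106], followed by CGE with 16.6 [14.7–18.7], MGE with 4.67 [3.64–5.92] and CTX with 4.14 [2.75–5.98]. The intervals of MGE and CTX overlapped for Tac1 as well. These were the 3 genes for which the highest library stood apart from the next.

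The other 3 genes were rare at this stage. Penk was found at 2.91 CPM [2.11–3.92] in LGE, 2.57 [1.84–3.49] in CGE and 1.92 [1.02–3.29] in CTX, with overlapping intervals, and as 1 UMI in MGE. Nts reached 5.75 CPM [4.59–7.11] in LGE, 5.08 [4.00–6.37] in MGE and 2.51 [1.79–3.42] in CGE. It had 0 UMIs in the 798 CTX cells, which allows a share of up to 0.376% of cells with a UMI. Pdyn, the dynorphin precursor, had 4 UMIs in CTX, 2 in CGE, 1 in MGE and 0 in LGE, and no regional order can be read from so few.

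**Figure D1:**
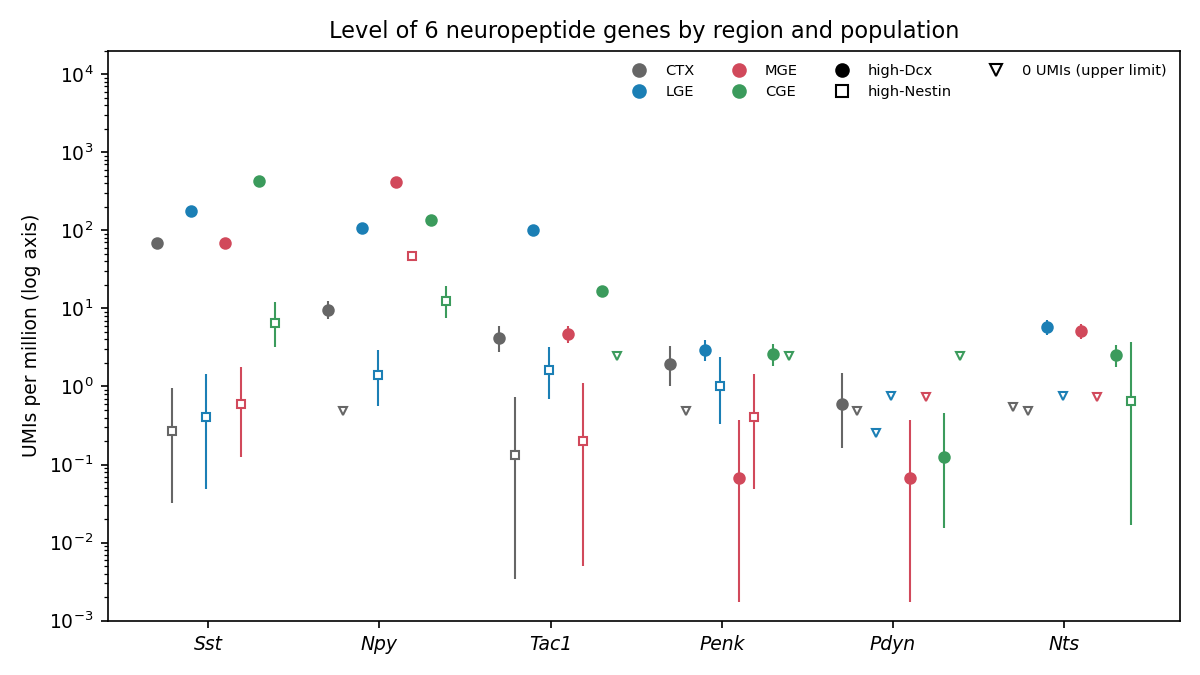
CPM (log axis) of each gene in high-Dcx cells (filled circles) and high-Nestin cells (open squares) of each library, with exact Poisson 95% intervals and open triangles for the upper limit where no UMI was found. Sst is highest in CGE, Npy in MGE and Tac1 in LGE, and the high-Nestin cells of MGE hold Npy at 46.5 CPM.

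High-Nestin cells (Nes above 1.5 and Dcx not), the progenitors of the same droplet runs, served as the background. Sst lay at 6.60 CPM in CGE, 0.604 in MGE, 0.404 in LGE and 0.266 in CTX, and Tac1 at 1.62 CPM or less. Npy was higher than this in MGE and CGE. It had 46.5 CPM [40.7–52.9] in MGE, where 8.98% [6.65–11.8] of 512 high-Nestin cells had a UMI. In CGE 19 UMIs gave an interval of 7.55 to 19.6 CPM, and 6.06% [2.94–10.9] of 165 cells had a UMI, an interval that overlaps that of MGE. High-Dcx cells exceeded high-Nestin cells in Npy by a ratio of 9.06 [7.95–10.4] in MGE and 10.9 [6.98–18.2] in CGE. In LGE Npy had 1.41 CPM and in CTX 0 UMIs in high-Nestin cells. Penk in LGE was found at own depth in 0.864% of high-Nestin cells (median 8407 UMIs) and 0.851% of high-Dcx cells (median 6441 UMIs). Thinned, the shares were 0.178% and 0.434%, and the level was 1.01 CPM in high-Nestin and 2.91 in high-Dcx cells, a ratio of 2.88 [1.14–9.32]. Markers of microglia or macrophages summed to 6.71 CPM in the high-Dcx cells of MGE, with all 6 genes of that list above 0, and to 0.609 CPM or less in the other libraries. With non-neural cells removed, the ratio of Npy in MGE to CGE was 3.07 [2.92–3.22].

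A level can come from many cells with few UMIs or from few cells with many, and the genes differed in this. When every cell was thinned to 3000 UMIs, Npy was detected in 35.0% [33.0–37.0] of MGE high-Dcx cells, 12.9% [11.6–14.4] in CGE, 7.33% [6.24–8.54] in LGE and 1.53% [0.792–2.66] in CTX. At their own depth the shares were 42.1%, 15.7%, 8.85% and 2.51%. Sst was detected in 10.7% [9.41–12] of CGE, 5.22% [3.77–7.02] of CTX, 5.11% [4.20–6.15] of LGE and 2.59% [1.96–3.35] of MGE cells, and in 13.3%, 5.76%, 5.87% and 2.89% without thinning. The intervals of CTX and LGE overlapped for the share of Sst cells, although the LGE level was higher. Tac1 was detected in 3.52% [2.77–4.41] of LGE cells and in 1.24% or less elsewhere, and in 5.58% of LGE cells without thinning.

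Among the Sst-positive cells the median count was 10.5 UMIs in LGE, 9 in CGE, 6.50 in MGE and 6 in CTX, with a highest cell of 223 UMIs in CGE. The median Tac1-positive cell of LGE held 2.00 UMIs, but the highest held 131, and the 10 cells with the most carried 54.8% of all Tac1 UMIs. These shares were 78.1% for Tac1 in CGE, 61.8% for Sst in MGE and 57.0% for Sst in CTX. Without those 10 cells, Tac1 fell from 16.6 to 3.65 CPM in CGE and Sst from 68.2 to 26.2 CPM in MGE, so that both levels rest on few cells. For Npy in MGE the corresponding share was only 5.74%, with a median of 4.00 UMIs over 932 positive cells. Any of the 6 genes was detected at own depth in 44.2% of the high-Dcx cells of MGE, 24.8% of CGE, 17.1% of LGE and 8.15% of CTX. 2 or more were found together in 2.08%, 7.47%, 4.40% and 2.88%.

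The high-Dcx gate left out most of the Tac1 UMIs of LGE. Over all kept LGE cells 3337 Tac1 UMIs were counted, and 55.2% of them lay outside the gate, mostly in cells with some Dcx: 25.4% with Dcx between 1.0 and 1.5 and 20.7% with Dcx up to 1.0. Tac1 was in fact higher in these bands, with 152 and 184 CPM, than above the gate. Of the 84 LGE cells with 10 or more Tac1 UMIs, 83 carried a UMI of Ebf1 or Isl1, 80 one of Mapt, which encodes the axonal protein tau, 35 one of Hes5 or Nes, genes of progenitors, and 0 one of Lhx6. Over all 4648 kept LGE cells Ebf1 was found in 22.5%, Isl1 in 36.5% and Lhx6 in 4.41%. Such shares are not given here for Mapt, Hes5 and Nes. Sst behaved otherwise, since 84.4% of its UMIs in LGE and 93.0% in CGE were in high-Dcx cells.

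For Npy in MGE, 71.0% of 8761 UMIs were in high-Dcx cells and 7.85% in cells without a Dcx UMI. Of the 302 MGE cells with 10 or more Npy UMIs, 265 carried Lhx6 and 145 carried Mapt. In CGE 78 of 86 such Npy cells carried Mapt, and in MGE all 28 cells with 10 or more Sst UMIs did. Cells with many Npy UMIs thus included many without a Mapt UMI in MGE. Over all 4738 kept cells of MGE, Lhx6 was found in 65.0%. The share of all kept cells with Mapt is not given here.

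**Figure D2:**
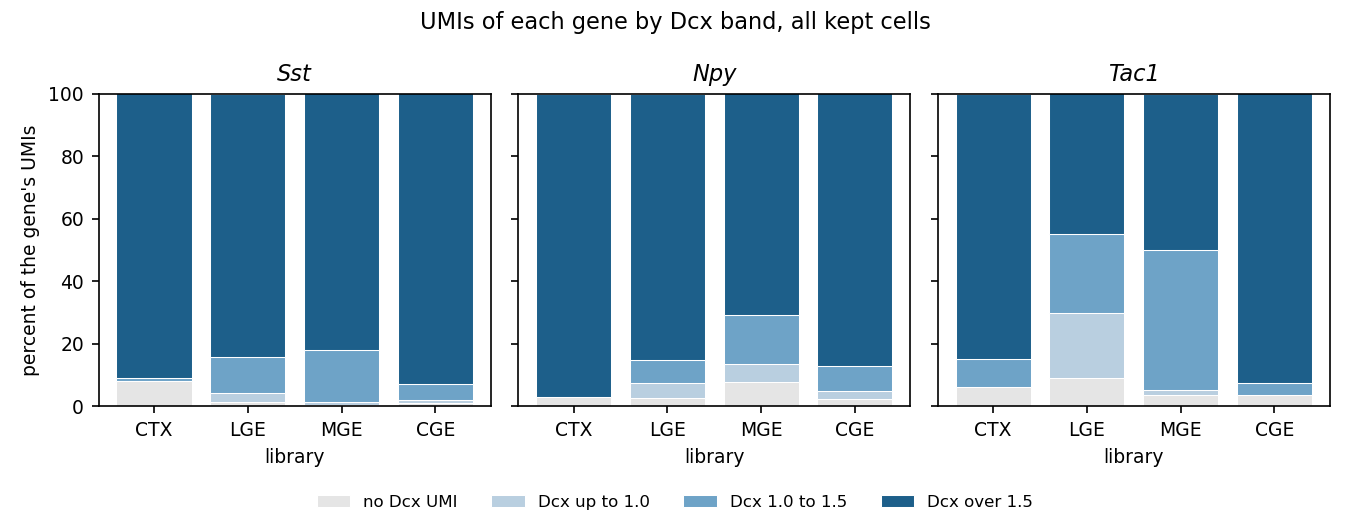
Percent of all UMIs of Sst, Npy and Tac1 in the kept cells of each library (bars), divided by the Dcx band of the cell on the ln(1 + UMIs per 10000) scale. In LGE only 44.8% of the Tac1 UMIs lie in cells with Dcx over 1.5, against 84.4% for Sst and 85.3% for Npy.

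To ask when the genes appear, postmitotic mantle zone cells (MZ; high Dcx, without Nes, Hes5, Mki67, Ccnd1 and Ccnd2) were compared with cycling subventricular zone cells (SVZ; high Dcx, with Mki67 and Ccnd2, without Mapt and Rbfox3). Sst had 461 CPM in MZ and 2.13 in SVZ cells of LGE, 122 and 0.476 in MGE, and 593 and 0 in CGE. Tac1 had 140 and 1.33 CPM in LGE, 11.6 and 0 in MGE, and 31.7 and 2.64 in CGE. Nts had 0 UMIs in all SVZ cells, against 14.5, 6.82 and 5.18 CPM in the MZ cells of LGE, MGE and CGE. The CPM of MZ was above that of SVZ in each eminence, but for Tac1 in CGE the shares of cells were close, with a UMI in 36 of 1200 MZ and 2 of 74 SVZ cells. Nts was found in 6 of 1200 MZ cells of CGE, and 0 of 74 SVZ cells allows a share of up to 4.05%, so a difference in the share of Nts cells was not detectable there.

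Npy followed the same direction with a difference between regions. In LGE it had 280 CPM in MZ and 6.93 in SVZ cells, a ratio of 40.4 [27.4–62.2], and in CGE 175 and 7.92 CPM, a ratio of 22.1 [10.1–60.4]. In MGE cycling SVZ cells already held 144 CPM [128–161] against 492 [472–512] in MZ cells, a ratio of 3.42 [3.03–3.87], and 29.0% [23.2–35.4] of 224 SVZ cells had an Npy UMI. The difference in ratio between regions was not tested.

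In edgeR's quasi-likelihood test on the summed counts of LGE, MGE and CGE, with the library as a block and Benjamini-Hochberg adjustment, a gene was called at an adjusted p under 0.05 and a log2 fold change past 0.25. All 4 genes with enough counts to be tested were called higher in MZ than in SVZ, where 23.6% of 11028 genes were called higher and 22.2% lower. Sst, Tac1 and Nts, at 2.64 CPM or less in each SVZ sum, had enough counts for the test only through MZ. A call in the other direction was hardly open to them, so the count of 4 is not read as a result. The SVZ gate also leaves out cells with Mapt. The log2 fold change was 7.98 ± 0.24 (SE; adjusted p = 1.33e-08) for Sst, 6.17 ± 0.40 (adjusted p = 1.65e-06) for Tac1 and 3.12 ± 0.51 (adjusted p = 0.00081) for Npy. For Nts, without a UMI in SVZ cells, a lower bound is given in place of the fitted value: the sum over the eminences was at least 16.9-fold higher in MZ, set against 3 counts over the group. Its MZ UMIs lay in 9 cells of LGE, 4 of MGE and 6 of CGE. As Nts was tested only through these cells, its call is not used as support. Without the library block Npy was not called (2.43, adjusted p = 0.087). Penk and Pdyn had too few counts for the test, although Penk was tested and called when MGE was left out (2.99, adjusted p = 0.00109), again only through its MZ sums. Penk had 9.20 CPM in MZ and 0.799 in SVZ cells of LGE, and 0 in both of MGE. The p-values measure the spread between the 3 regional libraries, which are not replicates of a region.

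The machinery of peptide release was largely higher in MZ as well. Of 14 genes for peptide processing and dense-core vesicles, 11 were tested, of which 9 were called higher and 0 lower. Over all 11028 genes 23.6% were called higher and 22.2% lower. The median log2 fold change of the list was 1.18 against 0.03 over all genes. None of the 11 was lower at an unadjusted p under 0.05 in edgeR, and DESeq2 called 7 higher and 0 lower. Pcsk1n, which encodes an inhibitor of the prohormone convertase, rose most (log2 fold change 3.51, SE 0.17, adjusted p 1.67e-07). Pam, the amidating enzyme, changed by 1.83, Chgb, a granin of the vesicle core, by 1.69, Cpe, carboxypeptidase E, by 1.20 and Cadps, a factor for vesicle priming, by 0.97. Of 18 peptide receptors 3 were tested and 2 called higher, Oprl1 (nociceptin receptor; 28.8 CPM in MZ, 0.907 in SVZ) and Sstr2 (a somatostatin receptor; 26.5 and 3.78 CPM). Of 26 other neuropeptide precursors, 4 were tested, of which 1 was called higher and 1 lower. The higher one was Pnoc, the nociceptin precursor, with 18.5 CPM in MZ and 0.302 in SVZ, and the lower one Cort, the cortistatin precursor, with 1.06 and 3.63 CPM. Pnoc and Oprl1, at 0.302 and 0.907 CPM in SVZ, were also tested largely through their MZ counts.

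The high-Dcx cells were then divided by Lhx6, Ebf1 and Isl1, with a cell counted as carrying a label when it held at least 1 UMI. A cell without a UMI can still express the gene, so the cells without a label are a mixture. LGE held 179 cells with Lhx6, 583 with Ebf1 and 915 with Isl1. MGE held 1816, 103 and 163 such cells, CGE 613, 193 and 269, and CTX 43, 41 and 0.

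The share of Sst and Npy UMIs in Lhx6 cells has to be read against the share of such cells, which was high in MGE (1816 of 2215). Cells with Lhx6 and without Ebf1 and Isl1 held 80.1% of the Sst UMIs in LGE, 79.9% in MGE, 69.0% in CGE and 67.8% in CTX, and 77.2%, 89.5%, 78.8% and 67.7% of the Npy UMIs. Per cell the regions differed widely. Sst was found at 1329 CPM in these cells of CTX, at 2109 in LGE and at 1213 in CGE, but at only 68.1 in MGE, where 2.80% [2.07–3.68] of them had an Sst UMI against 81.4% [66.6–91.6] in CTX, 47.3% [39.5–55.2] in LGE and 29.6% [25.9–33.5] in CGE. These shares were at own depth, and the interval of MGE lay below those of the other libraries. With labels and counts from thinned cells they were 2.53% [1.76–3.51] in MGE, 70.4% [49.8–86.2] in CTX, 43.5% [34.7–52.7] in LGE and 26.4% [22.1–30.9] in CGE. For Npy the shares at own depth lay closer together, at 63.6% [55.8–71.0] in LGE, 45.5% [43.2–47.9] in MGE, 42.8% [38.8–46.9] in CGE and 30.2% [17.2–46.1] in CTX. Thinned, they were 60.5%, 39.2%, 37.4% and 25.9% in the same order.

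**Figure D3:**
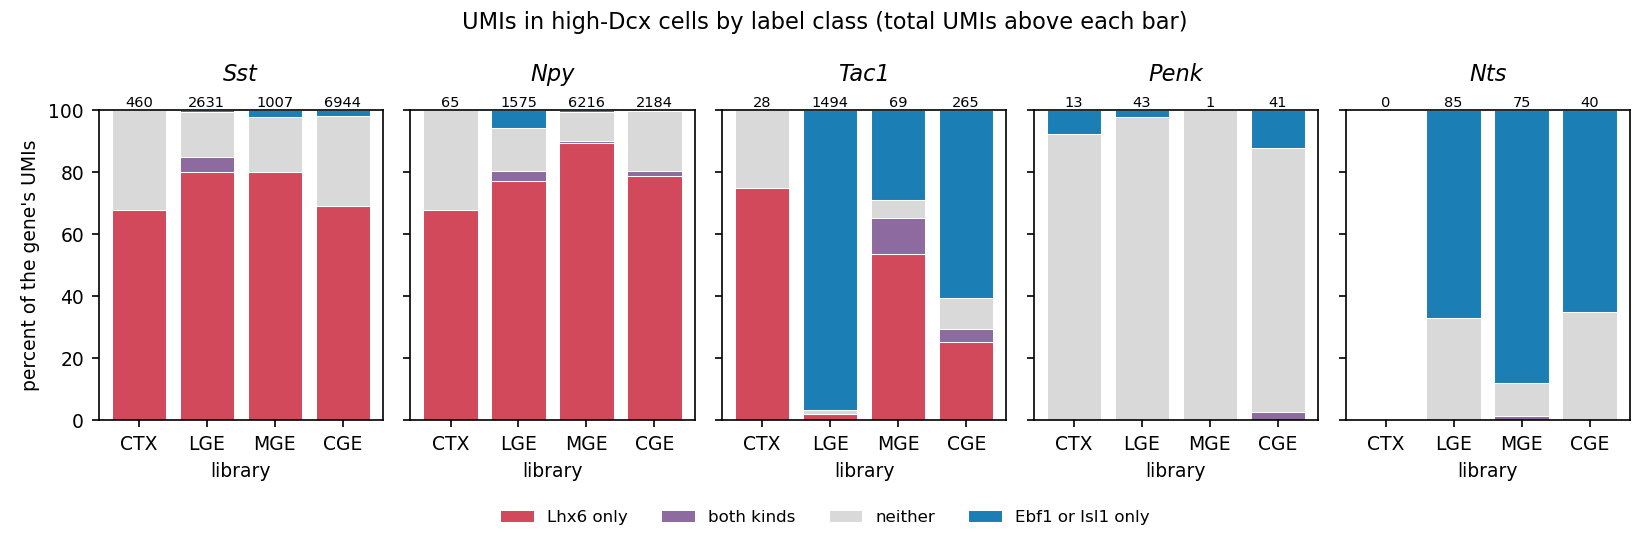
Percent of the UMIs of each gene in high-Dcx cells of each library (bars, with the number of UMIs above) that lie in cells with Lhx6 only, with both kinds of label, with neither, or with Ebf1 or Isl1 only. Most Sst and Npy UMIs lie in Lhx6 cells, which in MGE are also most of the cells (1816 of 2215), 96.9% of the LGE Tac1 UMIs lie in cells with Ebf1 or Isl1, and 97.7% of the LGE Penk UMIs in cells with neither.

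With against without Lhx6, Sst had 2046 and 29.2 CPM in LGE (ratio 70.0 [62.9–78.1]), 1153 and 182 CPM in CGE (6.33 [6.02–6.67]) and 1329 and 22.7 CPM in CTX (58.6 [48.1–71.8]). In MGE it had 65.4 and 82.2 CPM (0.796 [0.681–0.933]). That last ratio rests on 1007 UMIs of 64 cells, and when labels and counts were both taken from cells thinned to 3000 UMIs it turned to 1.54 [1.25–1.90], so the direction in MGE was not stable. Npy had 1162 and 22.5 CPM in LGE, 421 and 36.7 in CGE, 187 and 3.22 in CTX, and 456 and 249 in MGE. It was above 1 in all 4 libraries and lowest in MGE with a ratio of 1.83 [1.68–1.99].

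In edgeR's fit over LGE, MGE and CGE, 0 of the 4 genes tested were called in the Lhx6 comparison, in which 0% of 12275 genes were called higher and 0.0163% lower. In all, 804 genes and 2 of the 4 peptide genes had an unadjusted p under 0.05, and DESeq2 called 28 genes higher and 126 lower, Nts among the latter. The log2 fold change was 2.81 ± 1.42 (SE; adjusted p = 0.811) for Sst and 3.4 ± 1.04 (adjusted p = 0.631) for Npy. Without MGE edgeR called Sst at 4.37 (adjusted p = 0.0227), Npy at 4.60 (adjusted p = 0.00423) and Nts (adjusted p = 0.0432), and 397 genes in all. Across the eminences Nts had 1 UMI in Lhx6 cells and 199 in the others, a ratio of 0.00799 [0.000201–0.0450], with an adjusted p = 0.0637 in edgeR (0.0498 without LGE), and Penk had 1 and 84 UMIs. Nts had enough counts for this test only through the cells without Lhx6, so its p-values are not used as support.

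Tac1 had no common direction by Lhx6. It had 25.7 CPM with and 107 without Lhx6 in LGE (ratio 0.240 [0.159–0.348]), 3.66 and 9.77 in MGE (0.374 [0.223–0.642]) and 18.7 and 15.9 in CGE (1.18 [0.894–1.55]). In CTX it had 89.5 and 1.07 CPM (83.4 [34.2–232]), from 21 UMIs in 5 Lhx6 cells. The log2 fold change over the eminences was -0.99 ± 0.50 (SE; adjusted p = 0.806 in edgeR).

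In CPM, Isl1 gave each of Sst, Npy and Tac1 the same direction in every eminence. With against without Isl1, Tac1 had 224 and 5.89 CPM in LGE, 23.3 and 3.02 in MGE, and 79.4 and 6.88 in CGE. Sst had 19.7 and 301 CPM in LGE, 17.5 and 72.7 in MGE, and 58.9 and 494 in CGE. Npy had 20.3 and 174, 62.4 and 453, and 7.01 and 157 CPM in the same order. In CPM, Tac1 was thus higher, and Sst and Npy lower, in Isl1 cells. For Tac1 outside LGE this rested on few cells. Of cells with Ebf1 or Isl1 and without Lhx6, 9 of 328 in CGE and 5 of 123 in MGE had a Tac1 UMI. With Lhx6 and neither of these, it was 23 of 584 and 16 of 1753. With none of the 3 labels, it was 18 of 1347 and 4 of 276. In CGE the shares were 2.74% [1.26–5.14], 3.94% [2.51–5.85] and 1.34%, so the first did not exceed the second. The share by Isl1 alone was not tested. edgeR called 1 gene higher and 2 lower of the 5 tested, where 1.46% of 12328 genes were called higher and 0.957% lower. The log2 fold change was 4.03 ± 0.42 (SE; adjusted p = 0.0104) for Tac1, -3.26 ± 0.30 (adjusted p = 0.00652) for Sst and -3.32 ± 0.25 (adjusted p = 0.00402) for Npy. Without the library block edgeR called none of these, although all kept their sign.

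With against without Ebf1, Tac1 had 347 and 5.36 CPM in LGE and 35.5 and 3.06 in MGE, but 3.18 and 18.1 in CGE, where its 5 UMIs in Ebf1 cells give a ratio of 0.176 [0.0566–0.415]. Sst had 5.07 and 245 CPM in LGE, 30.1 and 70.2 in MGE, and 25.4 and 480 in CGE, and Npy 9.41 and 144, 23.2 and 442, and 18.4 and 150. edgeR called 0 of the 5 tested genes higher and 2 lower, as did DESeq2, and no other had an unadjusted p under 0.05, where 6.0% of 12334 genes were called higher and 5.25% lower. Sst changed by -4.06 ± 0.65 (SE; adjusted p = 0.0106) and Npy by -3.74 ± 0.23 (adjusted p = 4e-04). Sst was no longer called without LGE (-3.06, adjusted p = 0.0544) or with CTX added (-4.01, adjusted p = 0.0584), and without the library block neither was (adjusted p = 0.115 and 0.0502). Tac1 had a log2 fold change of 3.13 ± 1.40 (adjusted p = 0.205), and without CGE it was called, at 5.06 (adjusted p = 0.00291), as was Nts, at -2.91 (adjusted p = 0.0453).

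Ebf1 cells also held more of the markers of excitatory neurons. All 4 of the tested genes of that list were called higher, where 6.0% of 12334 genes were. Among them was Neurod6, a factor of cortical projection neurons, with 60.8 CPM in cells with and 4.41 in cells without Ebf1 over the eminences. Neurod6 had 0 CPM in the high-Dcx cells of MGE, so its UMIs came from LGE and CGE only. Summed over the 5 genes of the list, the level in high-Dcx cells was 80.8 CPM in CGE, 32.9 in LGE and 0.271 in MGE, and all 5 were above 0 in CGE. The part of such cells in the Tac1 value of CGE was not tested.

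**Figure D4:**
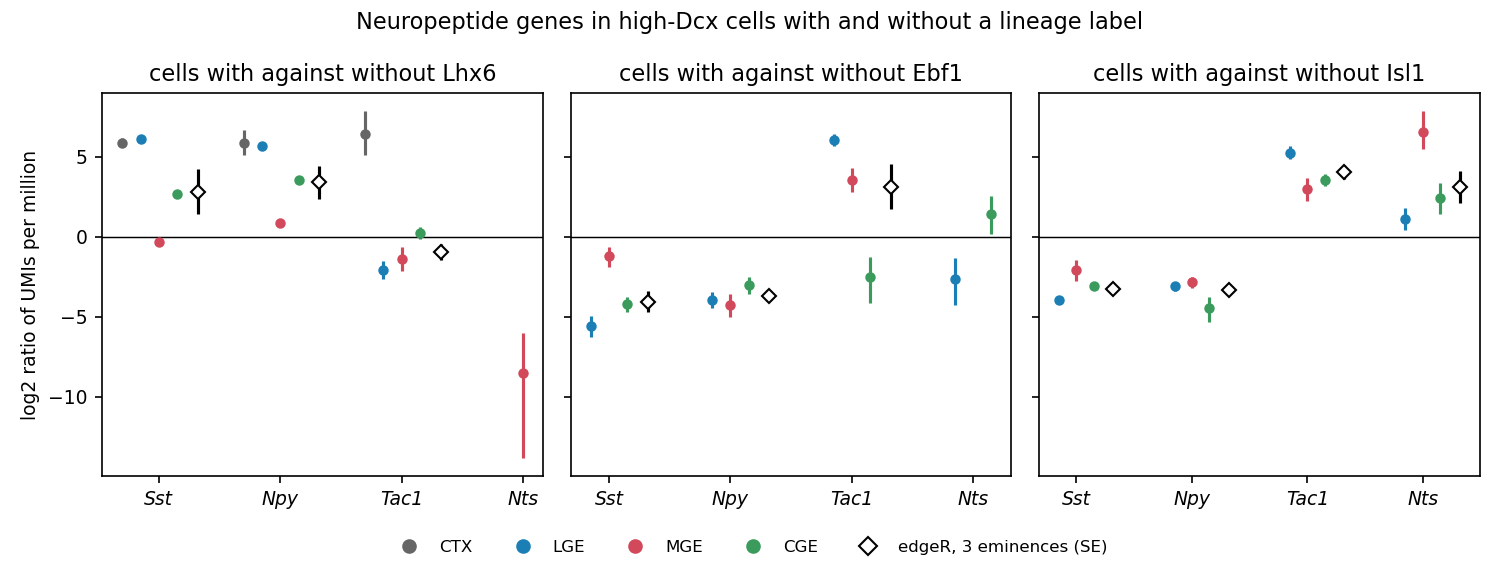
Log2 ratio of CPM in high-Dcx cells with over those without each label, per library (circles, exact 95% intervals), and the edgeR log2 fold change with its standard error where every eminence had UMIs on both sides (diamonds). For Isl1 the 3 eminences lie on the same side for Sst, Npy and Tac1, while for Lhx6 the MGE circle of Sst lies below 0 and those of the other libraries above.

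Of the 14 processing genes, 3 of 12 tested were called higher in Ebf1 cells and 0 lower (0 at an unadjusted p under 0.05; DESeq2 called 4 higher and 0 lower), including Pcsk2, a prohormone convertase, by 2.38 (SE 0.38, adjusted p 0.0102). Of the receptors, 2 of 6 were called higher there, Oprl1 by 1.30 and Oprm1, the mu opioid receptor, by 5.53, although the latter had only 5.58 CPM in Ebf1 cells. Of the other precursors, 1 of 6 tested was called higher in Ebf1 cells, Pnoc (24.8 CPM against 8.63). In the Isl1 comparison 0 of 13 processing genes (4 at an unadjusted p under 0.05, 2 in DESeq2), 0 of 4 precursors (1 and 1) and 2 of 5 receptors were called, and in the Lhx6 comparison edgeR called 0 of 14, 4 and 5, of which 2, 0 and 3 had an unadjusted p under 0.05 and DESeq2 called 0, 0 and 2. Over all genes 1.46% were called higher and 0.957% lower by Isl1, and 0% and 0.0163% by Lhx6. The receptor and precursor lists had too few tested genes to be read against such shares.

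Most of the 26 other precursors were at low levels. Pnoc was highest in CGE (20.3 CPM) and Cck, the cholecystokinin precursor, in CTX (20.6 CPM), while Vip, which marks CGE-derived interneurons later on, had 0 UMIs in high-Dcx cells of all libraries.

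Penk and Tac1, which both later mark striatal projection neurons, were found with different labels in LGE. Of the 43 Penk UMIs, 42 were in cells with none of the 3 labels. Isl1 was found in 0% of the 18 Penk-positive and in 72.0% of the 118 Tac1-positive cells of LGE, and Ebf1 in 5.56% and 66.9%. Six3, a factor of the later indirect-pathway neurons, was found in 83.3% of Penk-positive and 16.9% of Tac1-positive cells. Over all 2114 high-Dcx cells of LGE, Isl1 was found in 43.3%, Ebf1 in 27.6% and Six3 in 864 cells. The dopamine receptor gene Drd2 had 2 UMIs in the Penk-positive and 0 in the Tac1-positive cells. In CGE Penk was found in 21 cells, with Foxp1 in 76.2% of them against 21% of the others.

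Nts was carried by very few cells. In MGE its 75 UMIs were in 5 cells, and 67 of them in cells with Isl1. In LGE 53 of 85 UMIs, and in CGE 18 of 40, were in Isl1 cells. The Isl1 ratio was 2.13 [1.35–3.42] in LGE, 94.5 [45.3–228] in MGE and 5.28 [2.67–10.3] in CGE. Its fitted log2 fold change of 3.12 ± 0.99 did not pass edgeR's threshold (adjusted p = 0.19). Of the 6 Nts-positive cells of CGE, 16.7% had Rgs5 (27 UMIs) and 16.7% Kcnj8 (10 UMIs), both genes of pericytes, and with non-neural cells removed Nts had 2.01 CPM in CGE (2.51 with them), 5.76 in LGE and 5.09 in MGE. In the 14 Nts-positive cells of LGE Foxp1 was at 949 CPM against 344 in the others, and Rxrg at 127 against 15.4. Ebf1, of the same striatal marker list, went the other way. Nts had 1.21 CPM in LGE cells with and 7.52 in those without Ebf1, a ratio of 0.160 [0.0507–0.390].

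Not all Sst cells of CGE carried a detected Lhx6. Cells with none of the 3 labels held 2021 Sst UMIs (220 CPM [211–230]) in 110 of 1347 cells, 29.1% of the gene's UMIs in that library. Over all CGE cells without an Lhx6 UMI, the 128 Sst-positive ones had Nxph1, an adhesion ligand of MGE-derived interneurons, in 43.0% against 8.34% of the Sst-negative ones, and Maf in 32.8% against 9.70%. Nr2f2, a factor of the caudal eminence, was found in 82.0% and 80.7%, and Prox1 in 29.7% and 46.2%. The 101 Npy-positive cells without Lhx6 had Nxph1 in 58.4% and Maf in 55.4%, for which no share in Npy-negative cells is given here. Nkx2-1, the defining factor of the MGE, was found in 15.8% of them, against 2.60% of the Npy-negative ones. The other genes of the marker lists are not given for these cells.

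Whether Sst and Npy shared cells was asked after thinning to 3000 UMIs. In LGE 72 of 106 Sst cells had Npy, or 67.9% [58.2–76.7], against 4.07% [3.24–5.03] of the cells without Sst. In CGE it was 117 of 240, or 48.8% [42.3–55.3], against 8.64% [7.45–9.96]. In MGE 28 of 56 Sst cells had Npy, 50% [36.3–63.7], but so did 34.6% [32.5–36.6] of the others. These intervals overlapped narrowly, and with predicted doublets kept they lay apart (50.9% [37.3–64.4] against 34.8%). Read from the other side, 47.4% of the Npy cells in LGE and 40.2% in CGE had Sst, and 3.70% [2.47–5.31] of the 756 Npy cells in MGE. Npy without Sst was thus found in each eminence: in 80 of the 152 Npy cells of LGE, in 174 of 291 in CGE and in nearly all of those in MGE.

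The same comparison was made within Lhx6 cells. There, Npy was found in 73.1% [61.8–82.5] of Sst cells of LGE against 43.8% [33.6–54.3] without Sst, and in 61.6% [53.3–69.4] against 27.7% [23.7–32.1] in CGE. In MGE the values were 54.8% [38.7–70.2] and 36.8% [34.6–39.2], and the intervals overlapped. For Tac1 the result depended on depth. In LGE 5 of 73 Tac1 cells had Sst and 4 had Npy, with shares of Sst and Npy that overlapped those of the cells without Tac1, and among cells with Ebf1 or Isl1 0 of 59 Tac1 cells had Npy, which allows a share of up to 5.08%. In CGE 7 of 28 Tac1 cells had Npy and 2 had Sst, with overlapping intervals. At own depth 17 and 16 of 53 did, and there Tac1 stood apart with both genes in CGE and with Sst in MGE. Of 7 pairs with at least 20 cells of each gene, 2 stood apart.

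**Figure D5:**
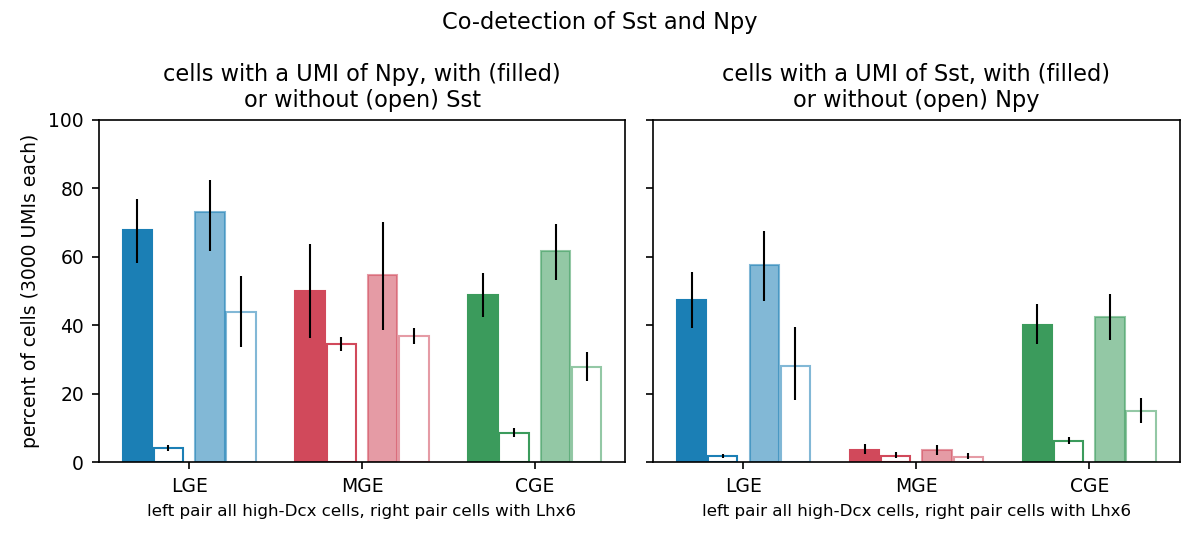
Percent of high-Dcx cells, each thinned to 3000 UMIs, with a UMI of the second gene among cells with (filled) and without (open) the first, with exact 95% intervals, for all cells (left pair) and cells with Lhx6 (right pair). In LGE and CGE the intervals of Npy with and without Sst lie apart, whereas in MGE the intervals of Npy with and without Sst overlap.

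The genes most like each member were ranked by the Pearson correlation of ln(1 + UMIs per 10000) across high-Dcx cells, averaged over the eminence libraries with at least 50 positive cells. These are descriptions across cells, which are not replicates and differ in depth. For Sst they were Nxph1 (mean r 0.435 over 3 libraries), Npy (0.375), Dlgap1 (0.302), Maf (0.284) and Gria4 (0.280), and for Npy Nxph1 (0.423), Lhx6 (0.388), Sst (0.375), Maf (0.374) and Sox6 (0.347). The correlation of Sst with Npy was 0.634 in LGE and 0.431 in CGE, but 0.060 in MGE. For Tac1 the ranking over LGE and CGE gave Dlk1 (0.264), Nefl (0.239), Hs6st2 (0.233), Ppp2r2b (0.230) and Tmem158 (0.217), although the correlation with Dlk1 was 0.480 in LGE and 0.048 in CGE. Penk, Pdyn and Nts were in too few cells to be ranked.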

How the data were processed

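The deposited values were raw UMI counts per gene and barcode, made by the authors with Cell Ranger (3.0.0 per the submitters' processing notes, 3.0.2 per the file headers) on mm10. The methods of the study name the 10x Chromium 3′ kits v2 and v3, without saying which library used which. The annotation release and the use of strand were not given in the sources used here. Every barcode held at least 500 UMIs. Cells had to hold over 1500 and under 4500 genes, under 5% mitochondrial and under 1% Hbb UMIs, and simulated-pair doublet scores removed 60 to 162 cells per library. Shares over all high-Dcx cells and of gene pairs were taken after thinning to 3000 UMIs unless stated. Thinning leaves out 13 to 53 high-Dcx cells per library. Shares in high-Nestin, MZ and SVZ cells, in label classes, in Dcx bands and of markers were taken at own depth unless stated. CPM carry exact Poisson, shares Clopper-Pearson and ratios conditional binomial intervals at 95%. A count of 0, also as a share of cells, is read against 3 counts. Sums of LGE, MGE and CGE cells were tested with edgeR 4.0.16 (filterByExpr, TMM, quasi-likelihood, library as block), with DESeq2 1.42.0 as an alternative. The fits were first tested on simulated data.

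The 6 genes, the marker lists and the tests were chosen with earlier results of these data known. Genes named beside the 6 were the 5 most correlated ones (mean r of 0.15 or more, 20 or more CPM) and, of each list, up to 5 called genes with the largest fold change at 20 or more CPM. Oprm1, Cck, Vip, Pnoc and Cort in MZ against SVZ, and the markers given beside the Penk, Tac1, Nts and Sst cells fall outside this rule and were chosen after their values were seen. Genes that define a gate or label are not given as results.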

Additional observations from a re-analysis of the deposited data

Results flagged for a closer look

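In 4 sets of ratios the libraries moved in opposite directions with the same label, and none of these differences was tested. Sst was higher in cells with than without Lhx6 in CTX (ratio 58.6), LGE (70.0) and CGE (6.33), and lower in MGE (0.796), although the MGE ratio was 1.54 [1.25–1.90] on cells thinned to 3000 UMIs and the opposite direction was then gone. Tac1 was higher with Lhx6 in CTX (83.4) and lower in LGE (0.240) and MGE (0.374). On thinned cells the intervals of CTX (4.32 [0.473–19.1]) and MGE (0.582 [0.248–1.36]) included 1. LGE then had 0.397 [0.197–0.718] and CGE 2.06 [1.21–3.40]. Tac1 was higher with Ebf1 in LGE (64.7) and MGE (11.6) and lower in CGE (0.176, from 5 UMIs in Ebf1 cells). Nts was higher with Ebf1 in CGE (2.65, from 9 UMIs in Ebf1 cells) and lower in LGE (0.160, from 5). On thinned cells the CGE intervals of Tac1 (0.184 [0.00461–1.06]) and Nts (2.76 [0.513–9.77]) by Ebf1 included 1.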

How the results depend on the processing

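No pairing between regions was possible because each region has 1 library. Within a library, the sums with and without a label, or of MZ and SVZ cells, were paired by taking the library as the block. Sst, Npy and Tac1 kept their highest library under all alternatives run, whereas that of Nts became MGE at a Dcx gate of 2.0 (2.66 [1.65–4.41]) and that of Penk CGE at a gate of 1.0 or without its top 10 cells. The Lhx6 ratio of Sst in MGE turned to 1.54 after thinning. Fitted changes that turned were Tac1 by Lhx6 with CTX added (0.06) and, by Ebf1 without LGE, Penk (0.63) and Nts (0.13), which with 1 library left out ranged from -1.23 and -2.91. The cause was not tested.

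The number of genes called by Lhx6 (2) was 154 in DESeq2, 190 without a filter, 19 with CTX, 22 after thinning, 5 with the label at 2 UMIs, 10 at gate 2.0, and 0 to 397 with 1 library left out (0 without CGE, where 344 had an unadjusted p under 0.05, 11 without LGE and 397 without MGE). By Ebf1 (1387) it was 2509 without a filter, 49 without the library block, 98 with CTX, 671 at gate 2.0, and 368 (without LGE) to 1133 with 1 library left out. By Isl1 (298) it was 507 in DESeq2, 1397 without a filter, 22 without the block, 468 after thinning, 965 with the label at 2 UMIs, and 98 (without LGE) to 305 with 1 left out. CTX held 0 Isl1 cells, so adding it was not run. In MZ against SVZ (5046) it was 3311 after thinning. Pairs with intervals apart rose from 2 to 6 at own depth and to 3 with predicted doublets kept. Tac1 by Ebf1 was called after thinning (3.49, adjusted p = 0.0333 in edgeR). Of the members' fitted changes, 146 kept direction and call, 13 gained and 8 lost the call. Penk, Pdyn and Nts had few positive cells.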
